A study of Mus musculus with 4 samples.

Results

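Dividing microglia of the stroke-injured mouse brain were defined as cells that passed 2 expression gates in the 2 stroke pools. A cell had to hold at least 500 detected genes, at least 1000 UMIs (unique molecular identifiers, each counting 1 captured RNA molecule) and at most 10% mitochondrial UMIs. It counted as a microglial cell with at least 30 UMIs per 10,000 over P2ry12, Tmem119, Siglech, Fcrls, Olfml3 and Selplg, and entered the mitotic gate with at least 10 UMIs per 10,000 over Mki67, Top2a, Birc5, Ube2c, Prc1, Nusap1, Ccnb1 and Hmmr. The mitotic gate held 1019 of the 6654 gated microglia of the stroke pools. They were set against the 5021 stroke microglia of the low gate, with under 3 UMIs per 10,000 over the same 8 genes, and 614 cells lay between the gates. The members were chosen by the levels of these 8 and 6 genes, which are given as a description without a test.

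Single-cell RNA was measured 3 days after surgery in 4 pools: female stroke, male stroke, female sham and male sham. Stroke was a permanent tie of the right middle cerebral artery (pMCAO), and sham mice had the operation without the tie. All mice carried Tmem119-2A-CreERT2;Ai6, in which a tamoxifen-inducible Cre driven from the microglial gene Tmem119 switches on the green fluorescent reporter ZsGreen. The hemisphere on the operated side was dissociated mechanically, cells were enriched on Percoll, and live ZsGreen+ cells were sorted for 10x Genomics 3′ v3.1 libraries. Material of 4 mice was combined in each pool and the mice cannot be separated, so each sex and treatment is 1 sample, and sex cannot be told apart from the pool. Cells of 1 pool are not replicates of a condition.

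Microglia are the resident macrophages of the brain parenchyma. They renew themselves locally, depend on signalling through the receptor Csf1r, and are known to proliferate around an ischaemic lesion in the days after arterial occlusion. A dividing cell copies its DNA in S phase with the minichromosome maintenance (MCM) helicase, the replication clamp Pcna and new histones. Cyclin A and B kinases then drive entry into mitosis, kinesins and kinetochore proteins move the chromosomes on the spindle, the anaphase-promoting complex destroys the cyclins, and cytokinesis splits the cell. Genes of the G2 and M phases are known targets of the MuvB complex with B-Myb and Foxm1, which acts through the cell cycle genes homology region (CHR, TTTGAA) together with CCAAT boxes bound by NF-Y, whereas S phase genes are known targets of E2F factors.

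The sequence upstream of the gate genes Mki67, Top2a and Ube2c and of Cdc20 and Cdk1 is shown because these windows hold the CHR sequence TTTGAA. That of the gate gene Ccnb1 is shown because it does not hold TTTGAA. Other forms of the CHR element were not searched, so a window without TTTGAA is not shown to lack the element. Sequences are from RefSeq on GRCm38.p6, read 5′ to 3′ in the direction of the gene, and cover the 120 bases before the annotated start. They lie at chr7:135716380-135716499 on the minus strand for Mki67, chr11:99024190-99024309 on the minus strand for Top2a, chr2:164769809-164769928 on the plus strand for Ube2c, chr4:118437344-118437463 on the minus strand for Cdc20, chr10:69352913-69353032 on the minus strand for Cdk1 and chr13:100786487-100786606 on the minus strand for Ccnb1. Capitals mark TTTGAA or its reverse complement TTCAAA, and CCAAT or its reverse complement ATTGG.
Mki67: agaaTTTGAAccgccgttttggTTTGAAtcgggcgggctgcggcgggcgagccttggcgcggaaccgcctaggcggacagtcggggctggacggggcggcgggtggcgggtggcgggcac
Top2a: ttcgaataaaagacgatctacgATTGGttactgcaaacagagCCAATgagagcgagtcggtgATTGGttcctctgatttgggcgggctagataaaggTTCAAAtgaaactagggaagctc
Ube2c: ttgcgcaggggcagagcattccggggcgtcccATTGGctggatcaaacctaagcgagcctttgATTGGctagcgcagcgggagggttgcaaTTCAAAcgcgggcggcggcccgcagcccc
Cdc20: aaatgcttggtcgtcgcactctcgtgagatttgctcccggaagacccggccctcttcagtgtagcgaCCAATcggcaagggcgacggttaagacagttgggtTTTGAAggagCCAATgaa
Cdk1: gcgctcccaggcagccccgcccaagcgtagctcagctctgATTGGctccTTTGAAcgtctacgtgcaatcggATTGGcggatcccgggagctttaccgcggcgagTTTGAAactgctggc
Ccnb1: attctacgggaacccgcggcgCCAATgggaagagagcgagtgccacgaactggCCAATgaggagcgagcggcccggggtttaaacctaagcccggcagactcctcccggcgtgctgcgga
The first 5 windows were chosen for holding TTTGAA. The windows of the gate genes Prc1, Ccnb1 and Hmmr hold none, and of the windows printed that of Mki67 alone lacks CCAAT. Over the window of 250 bases before to 50 after the start, searched on both strands, TTTGAA was found in 5 of the 8 gate genes (62.5%), against 20.2% of all 27025 genes in the table. Among the other G2/M genes described below, 70 of 85 matched the table and 48 of them held TTTGAA (68.6%), 50 held CCAAT (71.4%) and 38 held both (54.3%). Both elements occurred together in 7.97% of all genes, and CCAAT in 41.1%. Of 25 matched S phase genes, 3 held TTTGAA (12%) and 15 held CCAAT (60%). The E2F-type element TTTNNCGC was found in 11 of these 25 genes (44%), in 15 of 70 G2/M genes (21.4%) and in 0 of the 8 gate genes, against 5.93% of all genes. Of 22 matched homeostatic microglial genes, 4 held TTTGAA (18.2%) and 12 held CCAAT (54.5%). Matches to different motifs could overlap and were counted separately. A match describes the sequence and does not show binding.

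The 4 libraries held 4562 to 5931 barcodes and 29581392 to 66072270 UMIs, and 18045 of 20437 barcodes passed the filters. The male sham pool had exactly 5000 barcodes, none under 4198 UMIs, whereas the lowest in the other pools was 500 or 501. Pairs of pools shared 43 barcode sequences in all, 4 of them in mitotic-gate cells of a stroke pool or its partner pool. ZsGreen transcript averaged 1854 CPM (counts per 1000000, scaled by edgeR's TMM factors as are all CPM below) in the female and 1887 CPM in the male mitotic gate, against 1578 and 1465 CPM in the low gates, a log2 change of 0.30 that turned to -0.11 among cells of 10000 to under 20000 UMIs. TMM factors were computed separately for each comparison, so CPM of the same cells differ between comparisons. Doublets were not removed.

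The mitotic gate held 562 of 3458 gated microglia in the female stroke pool, or 16.3% (95% exact binomial interval 15.0 to 17.5), and 457 of 3196 in the male stroke pool, or 14.3% (13.1 to 15.6). It held 19 of 3198 gated microglia in the female sham pool, or 0.594% (0.358 to 0.926), and 49 of 4157 in the male sham pool, or 1.18% (0.873 to 1.56). Both stroke shares lay above both sham shares, and the intervals, which cover counting error only, did not meet. With 2 pools against 2, an exact two-sided permutation test cannot go below p = 0.33, so no test of the share is given. With the UMI minimum of the male sham pool applied to every pool, the shares were 17.9% and 15.9% in the stroke pools and 0.560% and 1.18% in the sham pools. Leaving out cells with at least 2 UMIs of a list of monocyte and macrophage genes lowered the stroke shares to 7.49% and 8.18%, with sham shares of 0.463% and 0.977%. Among the gated cells, 77.8% of the female and 70.0% of the male mitotic-gate cells had such UMIs, against 44.1% and 41.0% of low-gate cells, which were less deep.

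**Figure D1:**
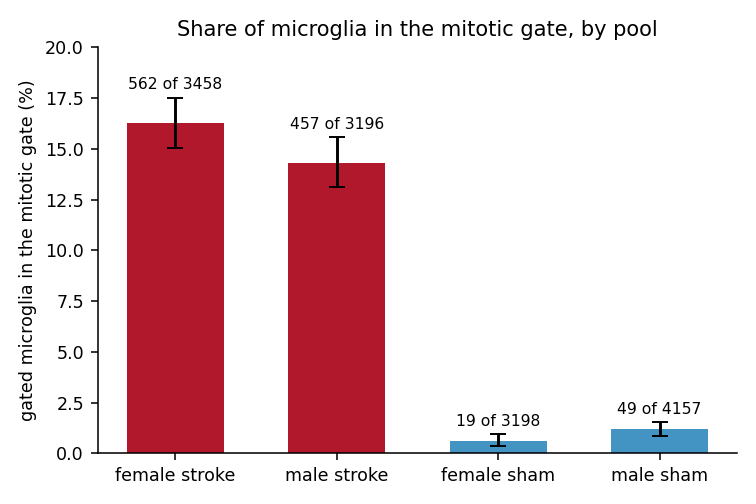
Percent of gated microglia in the mitotic gate (vertical axis) in the female stroke, male stroke, female sham and male sham pools; whiskers are 95% exact binomial intervals. The stroke pools stand at 16.3% and 14.3%, the sham pools at 0.594% and 1.18%.

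Mki67, which coats mitotic chromosomes, stood at 9.94 UMIs per 10,000 in the female and 9.09 in the male mitotic gate, against 0.0853 and 0.0881 in the low gates. At least 1 Mki67 UMI was seen in 97.2% and 94.3% of mitotic-gate cells, against 6.15% and 6.24% of low-gate cells. Cells with at least 100 UMIs per 10,000 of the neutrophil genes S100a8 and S100a9 give the level of stray RNA, since mature neutrophils do not divide. Of these, 4.23% of 71 cells in the female pool and 2.04% of 49 in the male pool had an Mki67 UMI, at median depths of 3153 and 2611 UMIs against 7674 and 7702 in the low gates. Top2a, the topoisomerase that untangles sister chromatids, stood at 8.84 and 8.23 UMIs per 10,000 in the female and male mitotic gates, against 0.0804 and 0.0751 in the low gates. Ccnb1, the cyclin B that drives mitotic entry, stood at 1.65 and 1.66 in the mitotic gates, against 0.0163 and 0.0139 in the low gates. The other 5 genes were the survivin subunit of the chromosomal passenger complex (Birc5), an anaphase-promoting complex ubiquitin enzyme (Ube2c), a midzone microtubule bundler (Prc1) and the spindle proteins Nusap1 and Hmmr. Their levels spanned 1.97 to 4.34 UMIs per 10,000 in the mitotic gates, against 0.00422 to 0.164 in the low gates.

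**Figure D2:**
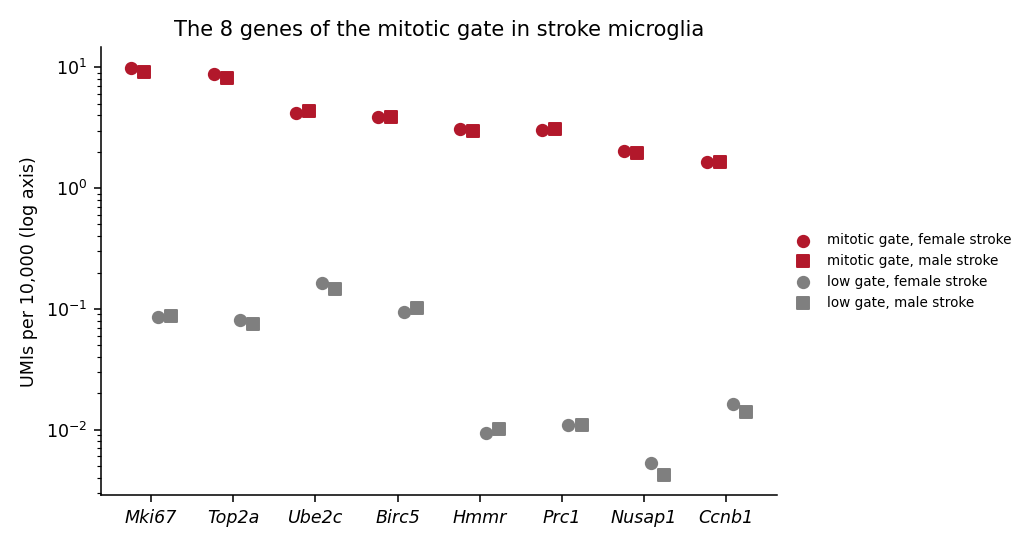
Level of each of the 8 gate genes in UMIs per 10,000 (log axis) in the mitotic and low gates of the female and male stroke pools, 1 point per pool and gate. Every mitotic-gate point lies above every low-gate point of its gene, as the gates require, and the 2 pools lie close together.

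The summed 8 genes held at least 10 UMIs in 90.2% of female and 93.2% of male members, and only 5 and 4 members had under 3. Just inside the threshold, at 10 to under 12 UMIs per 10,000, lay 40 female and 44 male cells with medians of 12 and 17 gate UMIs. Just outside, at 8 to under 10, lay 57 and 52 cells with medians of 10 and 10.5. At the edge of the low gate, 123 and 117 cells lay at 2 to under 3 UMIs per 10,000, and 90 and 79 cells at 3 to under 4. The gate therefore cuts a range that has no empty interval at either edge.

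Members were large in RNA content. Female members had a median of 16208 UMIs and male members one of 16066 UMIs, against 7674 and 7702 UMIs in the low gates, which are ratios of 2.11 and 2.09. Median detected genes were 4152 and 4148 in the mitotic gates, against 2651 and 2676 in the low gates. Mitochondrial UMIs made up a median of 5.19% and 5.01% in the mitotic gates, against 4.78% and 4.37% in the low gates. A doublet of a dividing and another cell would also carry more UMIs, and its part in the depth was not tested. Some results are given again over cells of 10000 to under 20000 UMIs in both gates (192 and 167 mitotic-gate, 704 and 698 low-gate cells), a comparison added after the data were seen and called the depth-matched one below.

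The gate reached beyond mitosis into S phase. After each cell was thinned to 3000 UMIs, 61.1% of 537 female and 58.5% of 441 male members held at least 20 UMIs per 10,000 of a list of S phase genes or of histone genes, against 8.95% and 9.67% of low-gate cells. Before thinning the shares were 57.5% and 57.1% of members, against 7.05% and 7.66% of low-gate cells. In the thinned cells the S phase list alone reached that level in 47.7% and 42.6% of members, against 7.21% and 6.24% of low-gate cells. The histone list alone reached it in 49.0% and 46.9% of members, against 2.04% and 3.43% of low-gate cells. At least 50 UMIs per 10,000 of 85 further G2/M genes were present in 98.0% and 97.5% of members, against 2.25% and 1.78% of low-gate cells. The members with G2/M genes at that level and neither S phase nor histone genes were 38.2% and 39.9%. Free RNA was not removed from these per-cell calls, and its part in them was not tested.

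Some transcripts known to peak late were higher in members without the S phase or histone program, and others were level or lower. Cdc20, which activates the anaphase-promoting complex, stood at 2.24 UMIs per 10,000 in 239 female and 2.37 in 196 male members without the program, against 0.969 in 323 female and 0.984 in 261 male members with it. The cyclin Ccnb2 stood at 2.25 and 2.54 without the program, against 1.01 and 1.04 with it, and the centromeric histone Cenpa at 3.98 and 4.00 against 2.27 and 2.50. Plk1 differed little, at 1.28 and 1.04 without the program against 1.23 and 1.0 with it. Aurka, a spindle pole kinase, stood at 0.796 and 0.817 without the program against 0.874 and 0.894 with it. The cytokinesis kinesin Kif23 stood at 1.02 and 0.967 without it against 1.34 and 1.20 with it, and Prc1 at 2.52 and 2.53 against 3.36 and 3.43. Top2a also ran the other way, at 6.01 and 5.31 without the program against 10.7 and 10.1 with it. These splits are a description, since the same cells' counts made them. The label of mitosis thus covers cells in S, G2 and M phase, which the 8 genes do not separate.

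Over all 12782 genes tested between the gates (edgeR's quasi-likelihood test on UMI sums per pool and gate, pool as a block, adjusted p under 0.05), 30.4% rose and 28.7% fell. A rise of at least 2-fold was called for 7.47% of genes and a fall of at least 2-fold for 6.1%. The median log2 change of all genes was -0.02. The fit had 1 residual degree of freedom, and p-values measure little beyond the counting spread of 2 pools; differences between mice are unknown. The call alone is thus common, and fold sizes carry more information below.

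All 85 further G2/M genes rose, 84 of them at least 2-fold, with a median log2 change of 4.84, or 4.56 in the depth-matched comparison, in which 84 of 85 rose. Genes that run with the 8 gate genes were selected along with them. Pttg1, the securin that holds separase in check and the 1 gene under 2-fold, changed by 0.34 and was chosen for naming after its value was seen. Among 16 mitotic kinases, cyclins and their partners, the median change was 5.88. Plk1, the polo kinase of spindle assembly, stood at 126 and 104 CPM in the female and male mitotic gates, against 0.644 and 0.709 CPM in the low gates, a log2 change of 7.39 ± 0.12 (SE; adjusted p = 5.45e-100). Nek2 (7.07), Ccna2 (6.80) and Cdc25c (6.72) followed, and Ccna2, cyclin A, stood at 153 and 159 CPM in the mitotic gates, against 1.29 and 1.5 CPM in the low gates.

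The 18 spindle proteins and kinesins had a median change of 5.77. Spag5, which encodes the spindle protein astrin, had a log2 change of 7.79 ± 0.21 (SE), or 7.14 depth-matched, with 40.4 and 35.3 CPM in the mitotic gates, against 0.201 and 0.125 CPM in the low gates. Aspm, a spindle-pole organiser, stood at 110 and 100 CPM in the mitotic gates, against 0.644 and 0.584 CPM in the low gates, a change of 7.41, or 8.09 depth-matched, and the kinesin Kif11 changed by 7.20. The 20 kinetochore and checkpoint genes had a median of 5.14, led by the kinetochore motor Cenpe (6.30) and the checkpoint kinase Bub1 (6.1). The 7 genes of the anaphase-promoting complex and separase had a median of 2.83, and Cdc20 led them at 147 and 155 CPM in the mitotic gates, against 1.65 and 1.63 CPM in the low gates. The 15 condensin and chromatin genes had a median of 2.94, with the condensin subunit Ncapg at 5.87. The 9 cytokinesis genes had a median of 5.23, with Cep55, which recruits the abscission machinery, at 6.26 and the cleavage furrow scaffold Anln at 6.21.

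**Figure D3:**
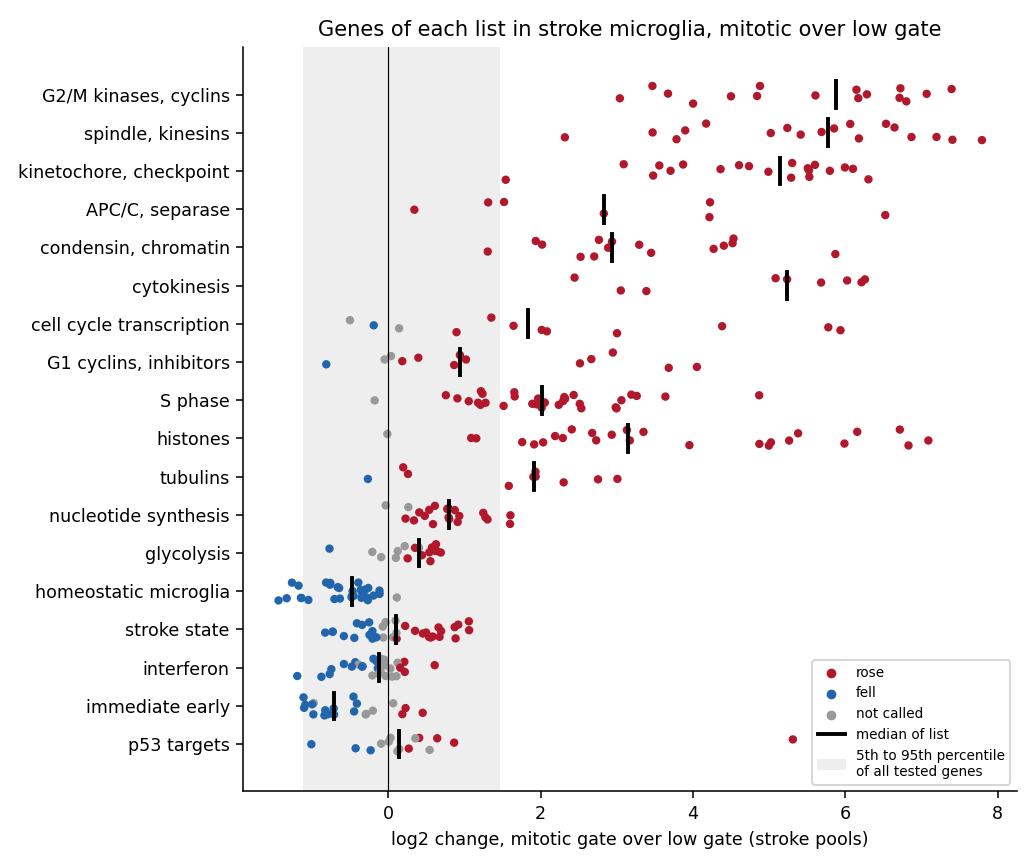
Log2 change between the mitotic and low gates of the stroke pools (horizontal axis) for each gene of 18 lists; points are genes, red for rose, blue for fell and grey for not called, black bars are list medians and the shaded band holds the 5th to 95th percentile of all tested genes, -1.11 to 1.45. The medians of the G2/M, S phase and histone lists lie to the right of the band, with some of their genes inside it, while most genes of the homeostatic, stroke state, interferon and immediate early lists lie inside it.

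The transcription factors of the cell cycle rose in 9 of 12 cases, with a median log2 change of 1.83. The largest rises were those of E2f7 (5.94) and E2f8 (4.38), repressors of E2F targets, Foxm1 (5.78), an activator of G2/M genes, and Mybl2 (3.00), which encodes B-Myb. Foxm1 stood at 43.8 and 42.2 CPM in the mitotic gates, against 0.724 and 0.834 CPM in the low gates. Of 13 G1 cyclins, their kinases and inhibitors, 10 rose and 1 fell, with a median of 0.94. Cdkn3 (4.05), a phosphatase of cyclin-dependent kinases, the kinase inhibitors Cdkn2c (3.68) and Cdkn2d (2.95), and the S phase cyclin Ccne1 (2.66) rose most. Ccnd1, cyclin D1 of early G1, stood at 88.7 and 79.8 CPM in the mitotic gates, against 91.0 and 83.5 CPM in the low gates, and was not called (adjusted p = 0.486; named after its value was seen).

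Of 32 S phase genes, 31 rose, 29 of them at least 2-fold, with a median of 2.01, or 1.83 in the depth-matched comparison. Rrm2, the ribonucleotide reductase subunit that limits deoxynucleotide supply, stood at 152 and 142 CPM in the mitotic gates, against 5.31 and 4.75 CPM in the low gates, a log2 change of 4.87 ± 0.08 (SE). Thymidine kinase Tk1 (3.64), the replication initiator Mcm10 (3.26) and Rrm1 (3.19) followed. Of 26 histone genes, 25 rose, all of these at least 2-fold, with a median of 3.15. The linker histone Hist1h1b stood at 603 and 521 CPM in the mitotic gates, against 5.71 and 4.17 CPM in the low gates, a change of 6.83. Most replication histone transcripts lack a poly(A) tail and the library primes on poly(A), and reads of near-identical histone copies can be split, so values of single histone genes are uncertain. In a list of 10 genes, tubulins and the tubulin-binding Stmn1, 9 rose and 1 fell, led by Tubb4b (3.01), Tuba1c (2.75) and Stmn1 (2.30). Tubulin paralogues can share reads.

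The supply of building blocks and energy changed less. Of 21 nucleotide synthesis genes 19 rose, 5 of them at least 2-fold, with a median of 0.79. In the depth-matched comparison 13 of 20 rose, with a median of 0.53. Shmt2, the mitochondrial serine hydroxymethyltransferase (1.60), Prps1, which makes the ribose-phosphate donor (1.60), and Impdh2 of guanine nucleotide synthesis (1.30) were the largest. Of 17 glycolysis genes 10 rose and 1 fell, none by 2-fold, with a median of 0.40. In the depth-matched comparison 6 of 16 rose and 4 fell, with a median of 0.12. Hk2, a hexokinase, fell to 242 and 291 CPM in the mitotic gates, against 433 and 476 CPM in the low gates, a change of -0.77. The glucose transporter Slc2a3 (0.69) and lactate dehydrogenase Ldha (0.64, or 0.22 depth-matched) rose.

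Members kept microglial identity genes at lower relative levels. The 6 genes of the microglial gate summed to 59.3 and 60.4 UMIs per 10,000 in the mitotic gates, against 80.3 and 85.0 in the low gates. P2ry12, the ADP receptor of resting processes, stood at 6.07 and 5.70 UMIs per 10,000 in the mitotic gates, against 12.8 and 13.6 in the low gates, whereas Fcrls stood at 21.3 and 22.0, against 23.4 and 23.3. Of 30 further homeostatic genes, 29 fell and none rose, 7 of them by at least 2-fold, with a median log2 change of -0.48. In the depth-matched comparison 27 fell and 1 rose, with a median of -0.41, where 15.7% of all genes fell and 18.6% rose. The fructose transporter Slc2a5 fell to 66.5 and 63.2 CPM in the mitotic gates, against 172 and 181 CPM in the low gates, a change of -1.44 ± 0.06 (SE). The ectonucleotidase Entpd1 (-1.34, or -0.86 depth-matched), the sialic acid receptor Cd33 (-1.27) and the clearance receptor Mertk (-1.18) followed. Cx3cr1, the fractalkine receptor, fell by 0.20 and was the gene that rose in the depth-matched comparison, at 0.11. Csf1r changed by -0.47, or -0.31 depth-matched, and it was 1 of 3 genes that fell among 8 tested of the colony-stimulating factor axis, of which Csf3r fell most (-0.69). Per cell, the homeostatic list gave 1033 and 1077 UMIs in the mitotic gates, against 782.5 and 830 in the low gates, so the share fell while the number of molecules per cell was 1.32 and 1.30 times as high.

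Genes of the stroke-associated microglial state were mixed. Of 34 genes, 16 rose and 12 fell, only 2 of the rises reaching 2-fold, with a median of 0.10. Ch25h, cholesterol 25-hydroxylase, stood at 249.8 and 280.1 CPM in the mitotic gates, against 120 and 134 CPM in the low gates, a change of 1.06 ± 0.06 (SE), or 0.63 depth-matched. The scavenger receptor Msr1 (1.06, or 0.69 depth-matched), fibronectin Fn1 (0.92, or 0.49) and the chemokine Ccl2 (0.88, or 0.54) followed. Spp1, osteopontin, rose to 3626 and 4154 CPM in the mitotic gates, against 2322 and 2560 CPM in the low gates, a change of 0.67, and was not called in the depth-matched comparison (0.18, adjusted p = 0.18). There 6 genes of the list rose and 19 fell, with a median of -0.33. The summed list stood at 340 and 368 UMIs per 10,000 in the mitotic gates, against 401 and 391 in the low gates, below it although the median gene was above 0. At matched depth the direction of the list's median thus turned.

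Genes of other programs moved less than the cell cycle lists. Of 30 interferon-induced genes 4 rose and 12 fell, with a median of -0.12. Ifit3b (-1.20), Ifit3 (-0.88) and Ifit2 (-0.77), which restrict viral RNA, fell most. With cells of at least 2 monocyte and macrophage UMIs left out, the change of Ifit3b was 0.00. Of 21 immediate early genes, whose transcription follows stimulation within minutes, 3 rose and 13 fell, with a median of -0.71, or -0.25 depth-matched. Egr1 stood at 59.4 and 44.6 CPM in the mitotic gates, against 114 and 110 CPM in the low gates, a change of -1.11, or -0.84 depth-matched. Egr2 (-1.12), Btg2 (-1.09) and Fos (-1.0) also fell. In the depth-matched comparison Btg2 changed by -0.37 and Fos by -0.46, and Egr2 was not called (-0.99, adjusted p = 0.0897). Of 15 tested p53 target genes 5 rose and 3 fell, with a median of 0.14. Gtse1, which is itself a G2/M gene, rose by 5.31, and Trp53inp1 fell by 1.01 but was not called in the depth-matched comparison (-0.52, adjusted p = 0.0803). The kinase inhibitor Cdkn1a (p21) stood at 126 and 152 CPM in the mitotic gates, against 73.6 and 78.3 CPM in the low gates, a rise of 0.86.

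Outside the lists, the 10 largest rises among called genes with a mean of at least 20 CPM included Pimreg (7.12), Cdca2 (6.89), Neil3 (6.84), Prr11 (6.73), Esco2 (6.53), Cip2a (5.67), Shcbp1 (5.56), Pclaf (4.76) and Diaph3 (4.68). Cdca2 targets a phosphatase to chromatin at mitotic exit, Neil3 is a DNA glycosylase, Esco2 acetylates cohesin, Pclaf binds Pcna and Diaph3 is a formin. Pclaf stood at 375 and 394 CPM in the mitotic gates, against 14.4 and 13.9 CPM in the low gates. The 10 largest falls were Il7r (-2.23), Gm10790 (-2.22), Atp8a2 (-1.83), A830008E24Rik (-1.83), Sox4 (-1.74), Crebrf (-1.69), Ptafr (-1.66), Thrsp (-1.63), Mgll (-1.61) and Pdcd4 (-1.59). In the depth-matched comparison all 10 were still called as falls, each smaller, at -1.5 for Il7r, -1.76 for Gm10790, -1.09 for Atp8a2, -0.96 for A830008E24Rik, -0.95 for Sox4, -1.08 for Crebrf, -1.06 for Ptafr, -1.33 for Thrsp, -1.23 for Mgll and -1.40 for Pdcd4. Il7r is the interleukin-7 receptor chain, Sox4 a transcription factor, Ptafr the receptor of platelet-activating factor, Mgll the lipase that degrades the endocannabinoid 2-AG, and Pdcd4 an inhibitor of translation. Il7r stood at 9.15 and 5.83 CPM in the mitotic gates, against 36.0 and 35.4 CPM in the low gates. Sox4 stood at 30 and 29.5 CPM in the mitotic gates, against 104 and 93.7 CPM in the low gates.

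Markers of other cells were also measured. The monocyte and macrophage list summed to 4.09 and 3.23 UMIs per 10,000 in the mitotic gates, against 4.83 and 3.56 in the low gates, and none of its 15 genes was at 0 in either mitotic gate. With each cell thinned to 3000 UMIs the direction turned, at 4.15 and 3.14 in the mitotic gates, against 3.69 and 2.66 in the low gates. Of its 14 tested genes 12 fell and 1 rose: the monocyte genes Ly6c2 (-2.84) and Ccr2 (-2.18) fell, and Ms4a6c rose by 0.39 (0.18 depth-matched) to 288 and 276 CPM, against 212 and 217 CPM in the low gates. At matched depth, 81.8% and 68.9% of mitotic-gate cells held at least 2 UMIs of the list, against 69.5% and 65.2% of low-gate cells. The neutrophil genes S100a9 (-4.01) and S100a8 (-3.07, or -4.80 depth-matched) fell, and Ngp and Camp were at 0 in both mitotic gates. The choroid and ependymal list summed to 4.23 in the female and 0.966 in the male mitotic gate, against 2.63 and 2.52 in the low gates, with 377 and 93.3 CPM of the choroid plexus gene Ttr in the mitotic gates. The dendritic list, which holds the microglial gate gene Siglech, summed to 8.01 and 8.18 in the mitotic gates, against 12.5 and 14.0 in the low gates. The oligodendrocyte and precursor list summed to 0.470 and 0.508 in the mitotic gates, against 0.488 and 0.445 in the low gates. Its gene Cspg4, the NG2 proteoglycan, rose to 21.6 and 23.0 CPM in the mitotic gates, against 6.96 and 4.17 CPM in the low gates, a change of 2.00, or 0.92 depth-matched. The part of other cells or free RNA in the gene changes was not tested.

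Within the stroke pools, S phase genes were highest in the middle of the range of the 8 genes. Over bins of 0, above 0 to under 3, 3 to under 10, 10 to under 20, 20 to under 40 and at least 40 UMIs per 10,000, the S phase list stood at 4.22, 9.48, 16, 25.9, 25.9 and 21.5 UMIs per 10,000 in the female pool. In the male pool it stood at 4.27, 8.83, 18.9, 25.6, 31.2 and 17.5. Histones were at 3.50 in the lowest and 31.4 in the highest bin of the female pool, and at 4.42 and 28.2 in the male pool. The homeostatic list stood at 900, 691, 577, 540, 507 and 540 UMIs per 10,000 in the female and 931, 735, 591, 541, 499 and 591 in the male pool, so most of its difference lay below the mitotic gate. Median depth also climbed, with 6602 UMIs in the lowest and 19967 in the highest female bin, and its part in the trend was not tested.

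**Figure D4:**
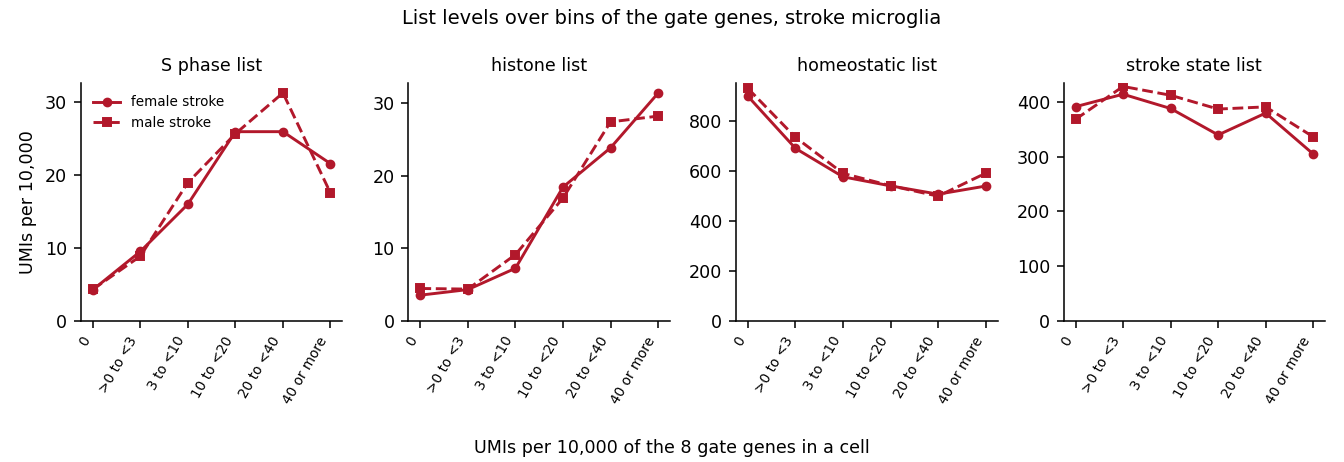
Summed level of the S phase, histone, homeostatic and stroke state lists in UMIs per 10,000 (vertical axes, each starting at 0) over 6 bins of the 8 gate genes in stroke microglia; circles with solid lines are the female and squares with dashed lines the male pool. The S phase list is highest in the bins from 10 to under 40, and the homeostatic list stands at 900 and 931 in the first bin and at 540 and 591 in the last.

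The female and male mitotic gates were alike in most genes. Of 6126 genes with a mean of at least 20 CPM, 8 were at least 2-fold higher in the female pool (Xist, Tsix, Cd74, H2-Ab1, Ttr, Enpp2, Gmcl1 and 2810403D21Rik) and 3 in the male pool (Ddx3y, Eif2s3y and B230312C02Rik). Xist, the RNA that silences 1 X chromosome, stood at 1446 CPM in the female and 0 CPM in the male mitotic gate, and the Y-linked Ddx3y at 0 CPM in the female and 49.5 CPM in the male gate, as the labels of sex require. In the low gates 7 genes were at least 2-fold higher in the female pool and 2 in the male pool, of 5807. With 1 pool per sex there is no test of these differences.

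The same rule applied to the sham pools gave 19 female and 49 male cells, and a comparison of the stroke with the sham mitotic gate was added after the data were seen. The stroke members came to 10989262 and 8959053 UMIs, against 259168 and 497634 for the sham members, whose median depths were 10093 and 8680 UMIs. Of 10949 genes tested (edgeR, sex as a covariate), 8.35% were higher and 5.59% lower after stroke. There was 1 pool per sex and treatment, so these p-values too measure little beyond counting spread. Fits of this comparison that left out 1 pool had no sex term and tested 7625 to 12048 genes, so their counts are not on the same footing. With library totals in place of TMM factors, 382 genes were higher and 1375 lower, against 914 and 612, and the median log2 difference of all genes was -0.28, against 0.00. Directions below held under both scalings for the counts of each list. Without the female stroke pool the counts were 278 and 149, without the male stroke pool 236 and 141, and without the male sham pool 385 genes were lower. Among cells of 6000 to under 16000 UMIs, 112 were higher and 93 lower. The change between the mitotic and the low gate was lower in the stroke than in the sham pools for 3.91% of 12582 genes and higher for 1.35% (edgeR interaction term).

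Most stroke state genes were higher in the stroke than in the sham members. They were not particular to the members, since the summed list stood at 401 and 391 UMIs per 10,000 in the female and male stroke low gates. Of 34 genes, 26 were higher and 2 lower after stroke, with a median log2 difference of 1.5 (23 and 3 with library totals, and 22 and 0 of 32 among cells of 6000 to under 16000 UMIs). Spp1 stood at 3937 and 4524 CPM in the female and male stroke members, against 7.05 and 51.2 CPM in the sham members, a log2 difference of 7.02 ± 0.24 (SE). Fn1 stood at 585 and 673 CPM, against 3.53 and 3.66 CPM in the sham members, where it rested on 3 UMIs; the ratio per UMI was 143 with a counting interval of 48.9 to 693. Fabp5, a fatty acid carrier, rested on 2 UMIs in the sham members and had a ratio of 59.2 (16.4 to 489). Ch25h stood at 271 and 305 CPM, against 21.2 and 12.8 CPM in the sham members, and Apoe, one of the 2 lower genes, at 2425 and 2374 CPM, against 4197 and 3925 CPM. Of 16 tested glycolysis genes 11 were higher and none lower, with a median of 1.05, and Aldoa, an aldolase, stood at 611 and 681 CPM, against 113 and 108 CPM in the sham members.

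All but 1 of the called genes of the G2/M, S phase and histone lists were lower in the stroke than in the sham members. Of 85 G2/M genes 18 were lower and none higher after stroke, with a median of -0.32. Of 32 S phase genes 13 were lower and none higher, with a median of -0.57, and of 26 histone genes 12 were lower and 1 higher, with a median of -0.90. The number of lower genes depended on the setting. It was 41 G2/M, 21 S phase and 18 histone genes with library totals, 5, 4 and 6 among cells of 6000 to under 16000 UMIs, 5, 5 and 6 without the female stroke pool, and 3, 5 and 8 without the male stroke pool. Genes of the G2/M list run with the gate. The cyclin Ccne2 stood at 44.7 and 51.4 CPM in the stroke members, against 183 and 168 CPM in the sham members, a log2 difference of -1.85 ± 0.21 (SE). Clspn, the checkpoint mediator of stalled replication forks, stood at 62.7 and 62.1 CPM, against 222 and 166 CPM. Cdkn1a stood at 136 and 165 CPM in the stroke members, against 652.5 and 481 CPM in the sham members, a log2 difference of -1.89 ± 0.17 (SE). The S phase or histone program was present in 61.1% and 58.5% of thinned stroke members, against 81.3% of 16 and 81.6% of 49 sham members. Of 30 homeostatic genes 3 were higher and 9 lower, and 1 and 0 among cells of 6000 to under 16000 UMIs. Cst3, cystatin C, stood at 11054 and 11694 CPM in the stroke members, against 25816 and 29157 CPM in the sham members.

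**Figure D5:**
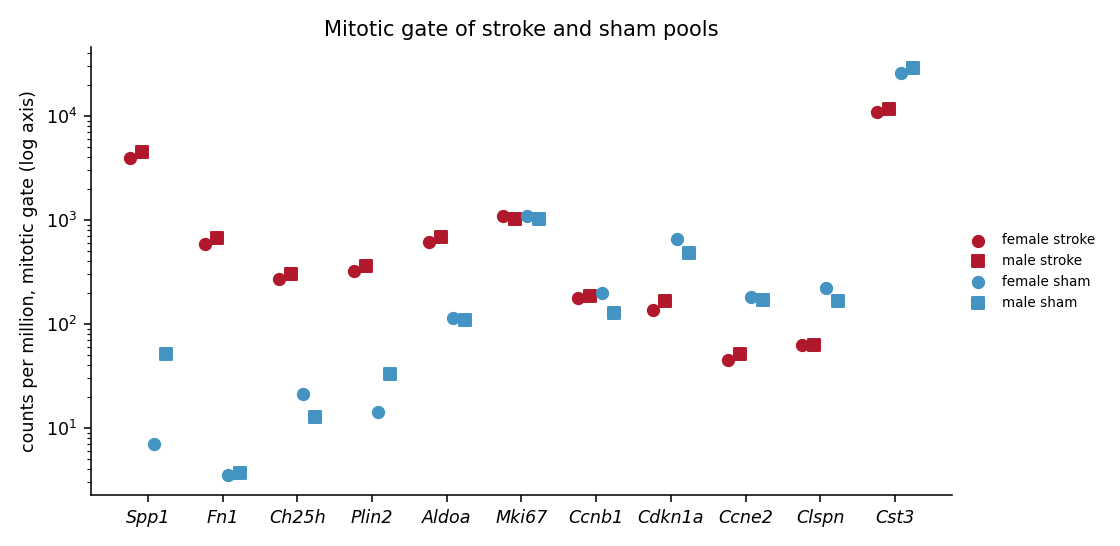
Level of 11 genes in CPM (log axis) in the mitotic gate of the female stroke, male stroke, female sham and male sham pools, 1 point per pool. Spp1, Fn1, Ch25h, Plin2 and Aldoa lie higher in both stroke pools, Cdkn1a, Ccne2, Clspn and Cst3 lower, and the gate gene Mki67 lies between 1011 and 1093 CPM in all 4 pools. Mki67 does not stand for all gate genes. As shares of UMIs without TMM scaling, Mki67, Top2a, Birc5, Ube2c, Prc1 and Nusap1 were lower in both stroke than in both sham mitotic gates. Ccnb1 and Hmmr of the stroke pools lay between the sham pools.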

How the data were processed

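Single-cell libraries of 4 pools were read as UMI counts. The authors deposited filtered matrices of raw counts per gene and barcode; Cell Ranger 7.1.0 and mm10 are given per the submitters' processing notes, whereas cellranger 6.1.2 stands in the matrices per the file headers. The handling of intronic reads was "not given in the sources used here". Of 32286 features, 32158 (99.6%) matched the gene annotation by ID.

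Cells were gated on UMIs per 10,000 as stated above. No doublet caller was run and free RNA was not subtracted. Counts were summed per pool and gate and tested with edgeR 4.0.16 (R 4.3.3; default low-count filter, TMM, quasi-likelihood F test, two-sided, Benjamini-Hochberg at 0.05 over all tested genes), with the pool as a block because both gates come from the same pool. SEs are the absolute log2 change over the square root of F. The estimated prior degrees of freedom were 136.5, against 1 residual degree of freedom. Counts were also simulated for this comparison (12796 genes), with known changes in a small share of genes, none at low levels in the low gates. There, 99.2% to 100% of changes of 2-fold and 4-fold were recovered, and 2.44% of calls fell on unchanged genes. The simulation used the spread estimated in this same fit, so it does not cover differences between mice or genes near 0. DESeq2 1.42.0 was an alternative. Shares have exact binomial (Clopper-Pearson) intervals for counting error only. Summaries, figures and promoter searches used Python 3.11.15, pandas 2.3.3, scipy 1.17.1, numpy 2.4.6 and matplotlib 3.10.9.

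The members and lists were chosen with earlier results of these data known. Named genes are the 2 to 4 called members of a list with the largest change. Outside lists they are the 10 largest rises and falls among called genes of at least 20 CPM with 1 direction in both pools. Genes named in the comparison with sham pools, in the description of sexes and in other-cell markers outside this rule were chosen after their values were seen. Spp1 and Cx3cr1 were also named outside this rule in the comparison of the gates. Levels of different genes are not length-corrected and are not compared with each other. A gene that this rule names is not reported here.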

Additional observations from a re-analysis of the deposited data

Results flagged for a closer look

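The change between the mitotic and the low gate differed between stroke and sham pools for many genes (edgeR interaction term over 8 sums, chosen after the data were seen). Of 12582 genes, 492 (3.91%) had a lower and 170 (1.35%) a higher change in the stroke than in the sham pools. The genes below were chosen after their values were seen, and their log2 values are stroke minus sham. Cdkn1a (-4.29) stood at 138 and 168 CPM in the female and male stroke mitotic gates and 83.2 and 88.4 CPM in the stroke low gates, against 622 and 472 CPM in the sham mitotic gates and 13.5 and 16.8 CPM in the sham low gates. Rrm2 (-6.61) stood at 168 and 157 CPM in the stroke mitotic gates and 6.01 and 5.36 CPM in the stroke low gates, against 289 and 224 CPM and 0.0446 and 0.113 CPM in the same sham gates. For both genes the mitotic gates were lower and the low gates higher in the stroke than in the sham pools. For Rrm2 the gap was far wider between the low gates than between the mitotic gates. Lower changes in the stroke pools were also fitted for Ccnb2 (-5.84), Cdca3 (-5.55), Cdc6 (-6.10), E2f8 (-5.49), Phlda3 (-5.28), Ccne2 (-4.68) and Ccne1 (-4.56). In thinned cells, 8.95% of female and 9.67% of male stroke low-gate cells held the S phase or histone program. In the sham low gates it was 2.99% and 3.44%. The part of these cells in the differences was not tested. Sham low-gate levels at or below 0.5 CPM rest on few UMIs, so these fitted differences depend on the prior count.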

How the results depend on the processing

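Against 3881 rises and 3666 falls between the gates, 2422 and 2126 were called with cells thinned to 3000 UMIs, 2062 and 1498 without cells of at least 2 macrophage UMIs, 2118 and 1784 at matched depth, and 2266 and 1434 by DESeq2; falls of at least 2-fold, 780, were 445, 308 and 367 under the last 3. At matched depth 2034 of 3759 rises and 1479 of 3414 falls were called again in the same direction, and 69 rises were called as falls. Without the replicate block, 3362 rises and 3028 falls were called. Leaving out 1 stroke pool leaves no residual degree of freedom, so no counts are given. After stroke in the mitotic gate, against 914 higher and 612 lower genes, library totals gave 382 and 1375, the window of 6000 to under 16000 UMIs 112 and 93, and leaving out each pool 236 to 876 and 141 to 461. For the change between gates in stroke against sham, against 170 higher and 492 lower, library totals gave 109 higher, the window 42 and 188, and leaving out each pool 35 to 256 and 257 to 470.

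The share of 16.3% in the female stroke pool was 11.3% with the gate at 20, 18.1% thinned, 17.9% with the male sham UMI minimum, 14.4% at 5% mitochondrial UMIs, 11.4% with the microglial gate at 60 and 7.49% without macrophage UMIs; the male 14.3% was 9.39%, 15.9%, 15.9%, 12.2%, 10.2% and 8.18%. Of 1611 comparisons over 116 named genes, 1544 counted as the same, 60 lost the call and 7 turned. Comparisons that left out 1 stroke pool had no test, could not lose a call and counted as the same on direction alone. The 7 that turned were Bst2 thinned (0.178), at 5% mitochondrial UMIs (0.0363) and without macrophage UMIs (0.0624), Chil3 (0.63), Ms4a7 (0.0743) and Ifit3b (0.00168) without macrophage UMIs, and Cxcr2 at matched depth (0.0707). Summed lists that turned were interferon (0.14) and monocyte and macrophage (0.21) thinned, and oligodendrocyte thinned (-0.26) and with the gate at 20 (-0.00389). The cause was not tested. The low sham cell number limits the comparison with stroke.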
